A study of Mus musculus with 6 samples.

Results

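The semaphorin, plexin, neuropilin, slit, robo, netrin and UNC5 genes were examined in mouse hepatocytes that had received Sox4 by viral gene transfer. They were taken from the count table by gene symbol alone (Sema3 to Sema7, Plxna to Plxnd, Nrp1 and Nrp2, Slit1 to Slit3, Robo1 to Robo4, Ntn1 to Ntn5 and Unc5a to Unc5d), which gave 46 of the 53599 genes listed. RNA-Seq was performed 4 days after injection in 2 groups of 3 libraries. The Sox4 group received AAV8-TBG-HA-Sox4-P2A-Cre, an adeno-associated virus encoding HA-tagged Sox4 and Cre recombinase, and the control group received AAV8-TBG-Cre (empty vector, EV). Both groups therefore carried Cre, and in both vectors the hepatocyte-active TBG promoter drove expression. The study's methods describe Rosa-LSL-Cas9-EGFP mice on a C57BL/6J background, injected at 4 to 8 weeks of age, so that Cas9 and EGFP were switched on by Cre in both groups. Hepatocytes were released with liberase and enriched on Percoll, and no sort for cells that received the vector is named in the labels, so each library is the average of its preparation.

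Semaphorins, slits and netrins are extracellular cues that were first described as guides of growing axons and that also act on vessels, leukocytes and epithelia. Class 3 semaphorins are secreted and mostly signal through neuropilins, which recruit plexins as the signalling partner, whereas most members of the other classes are tethered to the membrane and bind plexins directly. Slits bind Robo receptors, and netrins bind DCC, neogenin and the UNC5 receptors. All these receptors converge on small GTPases and on the actin cytoskeleton, and in liver several of them are best known from endothelial and stellate cells.

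Promoter sequences (250 bases before to 50 bases after the start, RefSeq, GRCm38.p6) were matched by symbol for 38 of the 46 genes, and gave 51 promoters. The following 5 are shown because they belong to genes on which the expression results turn: Sema4c and Unc5b, which rose from very low levels, Plxnb1, the main plexin to rise, and Sema4g and Nrp1, abundant genes that fell. Capitals mark the letters ACAAAG or ACAATG, the core of the sequence that SOX proteins bind, read on both strands, so that CTTTGT and CATTGT are the same letters on the other strand.
Sema4c (chr1:36557508-36557807, - strand): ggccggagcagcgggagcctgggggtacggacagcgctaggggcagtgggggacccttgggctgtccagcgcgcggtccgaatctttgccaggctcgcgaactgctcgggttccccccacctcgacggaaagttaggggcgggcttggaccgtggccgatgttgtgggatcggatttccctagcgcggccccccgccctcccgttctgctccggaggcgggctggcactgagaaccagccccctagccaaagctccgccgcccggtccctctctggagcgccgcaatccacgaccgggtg
Unc5b (chr10:60831532-60831831, - strand): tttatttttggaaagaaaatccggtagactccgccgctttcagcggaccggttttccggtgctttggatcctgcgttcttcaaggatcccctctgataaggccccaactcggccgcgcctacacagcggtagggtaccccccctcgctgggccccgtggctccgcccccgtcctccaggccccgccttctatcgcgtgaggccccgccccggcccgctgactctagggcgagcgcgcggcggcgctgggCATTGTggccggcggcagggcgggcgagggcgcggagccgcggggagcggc
Plxnb1 (chr9:109095186-109095485, + strand): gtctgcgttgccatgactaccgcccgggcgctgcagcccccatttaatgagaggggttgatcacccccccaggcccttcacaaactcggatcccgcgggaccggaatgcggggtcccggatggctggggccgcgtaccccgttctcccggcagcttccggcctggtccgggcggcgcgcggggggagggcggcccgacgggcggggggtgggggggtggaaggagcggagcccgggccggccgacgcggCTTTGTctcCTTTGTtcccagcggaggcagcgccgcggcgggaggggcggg
Sema4g (chr19:44989094-44989393, + strand): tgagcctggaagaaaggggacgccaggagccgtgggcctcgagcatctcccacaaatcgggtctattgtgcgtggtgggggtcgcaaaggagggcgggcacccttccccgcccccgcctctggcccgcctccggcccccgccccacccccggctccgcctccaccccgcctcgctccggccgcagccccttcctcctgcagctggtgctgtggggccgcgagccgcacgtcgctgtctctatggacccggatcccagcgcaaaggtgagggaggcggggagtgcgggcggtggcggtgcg
Nrp1 (chr8:128358823-128359122, + strand): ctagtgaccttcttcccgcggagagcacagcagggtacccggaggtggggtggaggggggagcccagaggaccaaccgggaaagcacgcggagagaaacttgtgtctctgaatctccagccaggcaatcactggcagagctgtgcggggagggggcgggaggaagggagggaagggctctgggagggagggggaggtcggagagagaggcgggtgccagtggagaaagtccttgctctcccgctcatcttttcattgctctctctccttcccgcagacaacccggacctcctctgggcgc
Of these 5 promoters, Plxnb1 held 2 matches and Unc5b held 1, while the Sema4c, Sema4g and Nrp1 windows held neither word. Sema4c had a further promoter in the table, which also held neither. Across the 51 promoters, 13 (25.5%) held either word, compared with 28.6% of the 32851 promoters of all 27025 genes. The share was 5 of 17 promoters (29.4%) for the guidance genes that rose and 2 of 10 (20.0%) for those that fell. Member promoters had a median GC content of 64.0%, against 52.7% for all promoters. A match is a description of the letters in the window and says nothing of whether SOX4 binds there.

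Total counts per library ranged from 15090629 to 16964860, and 12691 genes passed the filter on low counts. Sox4 itself had 2, 0 and 3 counts in the EV libraries and 21697, 15097 and 11816 in the Sox4 libraries, at least 3631-fold higher (adjusted p = 2.61e-07, edgeR). Of all genes tested, 6990 (55.1%) changed at an adjusted p under 0.05, 29.0% higher and 26.0% lower in Sox4-expressing hepatocytes, with a median log2 fold change of 0.04. Scaling by library size alone, without TMM (trimmed mean of M-values) factors, moved that median to 0.51, and 79.9% of the calls were then higher, in place of 52.7%. Levels below are CPM (library counts scaled to a total of 1e06) on TMM-scaled libraries, as mean ± SD (n = 3 libraries per group). A change is given as log2 fold change ± SE of Sox4 over EV, with the adjusted p of the edgeR test. A count of 3 or fewer, which corresponds to 0.150 to 0.231 CPM, was taken as the floor, and this covers counting error only. The 7 hepatocyte markers summed to 109500 to 131500 CPM in the EV libraries, against 77990 to 89220 CPM after Sox4, so that they were abundant in all 6 libraries. In bulk RNA, fewer cells of a type and less RNA per cell cannot be told apart.

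Of the 46 guidance genes, 26 had enough counts for a test. In Sox4-expressing hepatocytes, 20 of these 26 changed (76.9%), and 16 of the 26 by at least 2-fold, beside 55.1% and 28.4% of all genes tested. Among semaphorins, Sema4c, Sema4d, Sema3f, Sema6c, Sema6d and Sema4b rose, while Sema4g and Sema4a, the most abundant ones in control cells, fell. Among plexins, Plxna3, Plxnd1, Plxnc1, Plxnb1 and Plxna1 were higher, and Plxna2 and Plxnb2 were lower by calls that several alternatives removed. The co-receptor Nrp1 fell, the slit receptor Robo1 rose, Ntn1 and its receptor Unc5b rose, and Ntn3 fell. No slit gene had enough counts for a test.

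By number, 26 of the 46 genes passed the filter on low counts and 20 did not. Of the 26 tested, 14 were higher and 6 lower (76.9%), and 12 and 4 of these changed by at least 2-fold, beside 55.1% of all genes past the threshold and 28.4% past it with at least 2-fold (16.5% higher and 11.9% lower). The median log2 fold change was 1.29 over the 26, against 0.04 over all genes tested. The filter keeps genes that were high in 1 group alone, so these shares describe the tested genes only. In 20 of the 26 the libraries of the groups did not overlap, compared with 63.0% of all genes tested. Sox4 libraries lay above EV in 14 of them (33.1% of all genes tested) and below in 6 (29.9%), and Plxna2 was the only called gene whose groups overlapped.

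**Figure D1:**
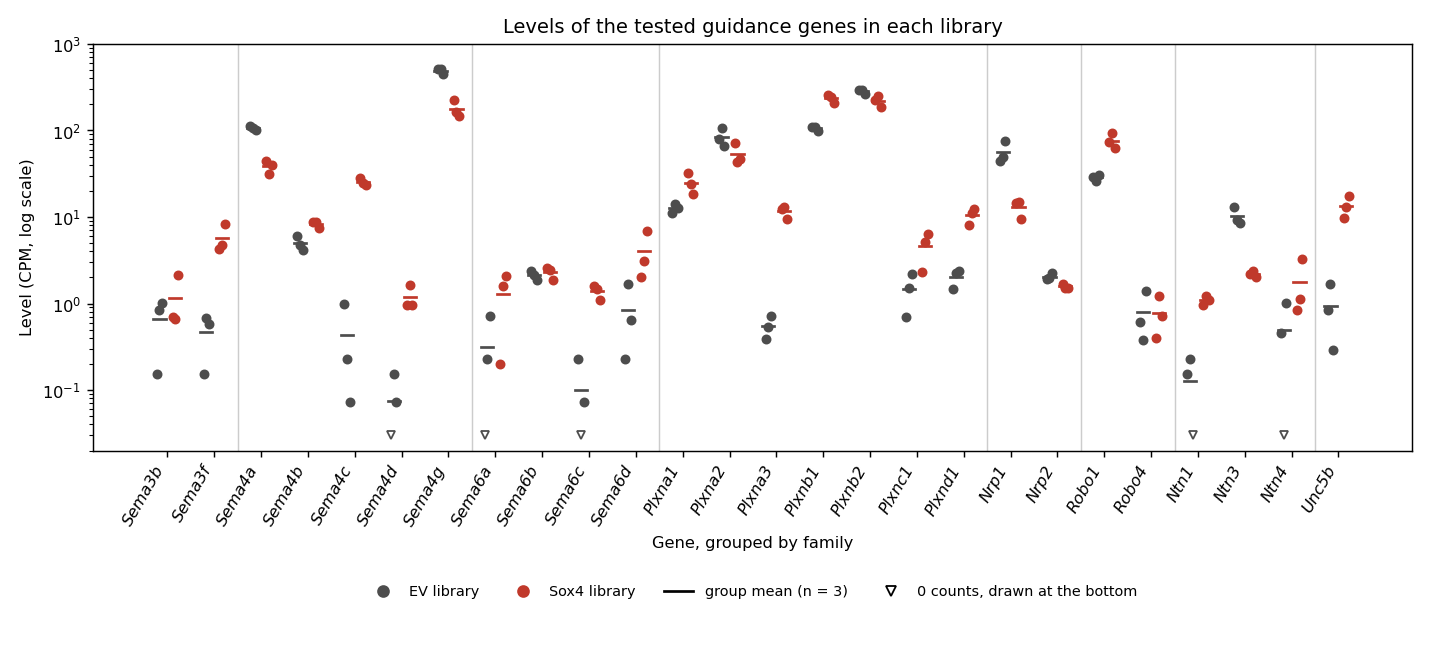
Level of each of the 26 tested guidance genes (CPM, log axis) in the 3 EV libraries (grey) and the 3 Sox4 libraries (red), with group means as bars and libraries without a count as open triangles at the bottom. Sema4g (491 to 178 CPM) and Plxnb2 (284 to 221 CPM) stayed near the top in both groups. Plxnb1 (106 to 237 CPM) had the highest mean in Sox4 libraries, and Sema4c went from 0.434 to 25.5 CPM.

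Class 4 semaphorins are membrane proteins and held nearly all of the semaphorin mRNA. Of 6 members, 5 were tested and all 5 changed, 3 of them higher and 2 lower, beside 55.1% of all genes tested. Sema4c, a ligand of plexin-B2, had 1.0, 0.228 and 0.0725 CPM in the EV libraries and 28.4, 24.5 and 23.6 CPM in the Sox4 libraries. All Sox4 libraries were far above all EV libraries, and the first EV library held 13 of the 17 EV counts. The change in Sema4c was 5.88 ± 0.71 (58.8-fold, adjusted p = 1.18e-05), the largest fitted among the 46 genes, and 7.34 without that EV library. Sema4d, the ligand of plexin-B1 that was first known from lymphocytes, had 0, 2 and 1 counts in EV and 19, 32 and 19 in Sox4 libraries, or 0.0747 ± 0.0759 and 1.18 ± 0.390 CPM. As no EV library exceeded the floor, Sema4d was at least 5.25-fold higher (adjusted p = 0.00143). Sema4b rose by less (0.73 ± 0.17, 5.02 ± 0.960 to 8.31 ± 0.797 CPM, adjusted p = 0.0141), and missed the threshold without EV library 2 or 3 (adjusted p = 0.0551 and 0.0558).

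Sema4g and Sema4a moved in the opposite direction. Sema4g, another membrane semaphorin that can bind plexin-B2, had 514, 512 and 446 CPM in EV and 225, 164 and 147 CPM in Sox4 libraries. The highest Sox4 library remained below the lowest EV library, and the change was -1.46 ± 0.20 (2.75-fold lower, adjusted p = 8.73e-05). Sema4a, which is also known as a costimulatory ligand of T cells, had 112, 107 and 101 CPM in EV and 44.0, 31.3 and 39.9 CPM in Sox4 libraries. Its groups were equally separate, with a change of -1.47 ± 0.15 (2.77-fold lower, adjusted p = 1.99e-05). The remaining class 4 gene, Sema4f, had at most 2 counts in any library.

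Class 3 semaphorins, the secreted ligands, were near the limit of detection in control cells. Sema3f, which binds neuropilin-2 with plexin-A3, had 0.154, 0.682 and 0.580 CPM in EV and 4.31, 4.74 and 8.20 CPM in Sox4 libraries. The lowest Sox4 library was well above the highest EV library, and Sema3f rose by 3.58 ± 0.55 (11.9-fold, adjusted p = 1.64e-04). Sema3b overlapped between groups (0.668 ± 0.454 and 1.16 ± 0.834 CPM, 0.79 ± 0.80, adjusted p = 0.348, and 0.03 without Sox4 library 3). The other 5 genes were not tested: Sema3a, Sema3c, Sema3d and Sema3g had no count in EV and at most 9 in a Sox4 library, and Sema3e had 4 counts in 1 EV library and none elsewhere. Of these, Sema3d had 3, 4 and 9 counts in the Sox4 libraries and none in EV.

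Among the 7 semaphorins of classes 5 to 7, 2 of the 4 tested passed the threshold, both higher. This was near the 55.1% of all genes tested that passed it (29.0% higher). Sema6d, a transmembrane ligand of plexin-A1, had 0.231, 1.67 and 0.653 CPM in EV and 2.00, 3.06 and 6.93 CPM in Sox4 libraries. The groups did not overlap, but they lay close, and the rise of 2.22 ± 0.83 (4.67-fold, adjusted p = 0.0198) rested on single libraries. It was 1.57 without the third Sox4 library (adjusted p = 0.0621), 2.05 without the third EV library (adjusted p = 0.0765) and 3.13 without the second EV library. Sema6c had 3, 0 and 1 counts in EV and 32, 29 and 22 in Sox4 libraries (0.101 ± 0.118 and 1.40 ± 0.254 CPM). With all EV libraries at or under the floor, Sema6c was at least 6.21-fold higher (adjusted p = 0.00134).

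Sema6b was at a like level in both groups (2.13 ± 0.250 and 2.29 ± 0.366 CPM, 0.10 ± 0.16, adjusted p = 0.789). Sema6a ranged from 0 to 0.725 CPM in EV libraries and reached 0.200 to 2.08 CPM in Sox4 libraries and did not pass the test (1.97 ± 1.17, adjusted p = 0.124). Its value was 3.39 without EV library 3 (adjusted p = 0.0557), and it was called without Sox4 library 1 (2.47, adjusted p = 0.0220) and without a filter on low counts (adjusted p = 0.00585). Sema5a, Sema5b and Sema7a were not tested. Sema5b, a transmembrane semaphorin with thrombospondin repeats, was the highest of them, with 22, 3 and 20 counts in EV and 0, 4 and 5 in Sox4 libraries. It was lower by DESeq2, which kept it (log2 fold change of -2.89, adjusted p = 0.0120).

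Compared per kb of exon, which allows levels of different genes to be set side by side, the semaphorins changed both in total and in make-up. Their summed level was 142 ± 10.2 CPM per kb in EV and 62.4 ± 10.04 CPM per kb in Sox4 libraries. Sema4g made up 76.1% ± 0.711 of that sum in EV and 62.4% ± 4.91 in Sox4 libraries, and Sema4a 22.0% ± 0.604 and 18.0% ± 2.31. Sema4c went from 0.0693% to 9.65% of the sum, Sema4b from 0.877% to 3.34% and Sema3f from 0.0971% to 2.74%. Sema4g was nonetheless the leading semaphorin in every library. Within class 3 alone, Sema3f held 39.4% ± 6.50 of the sum in EV and 82.6% ± 4.10 in Sox4 libraries, although the EV sum was only 0.331 CPM per kb.

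**Figure D2:**
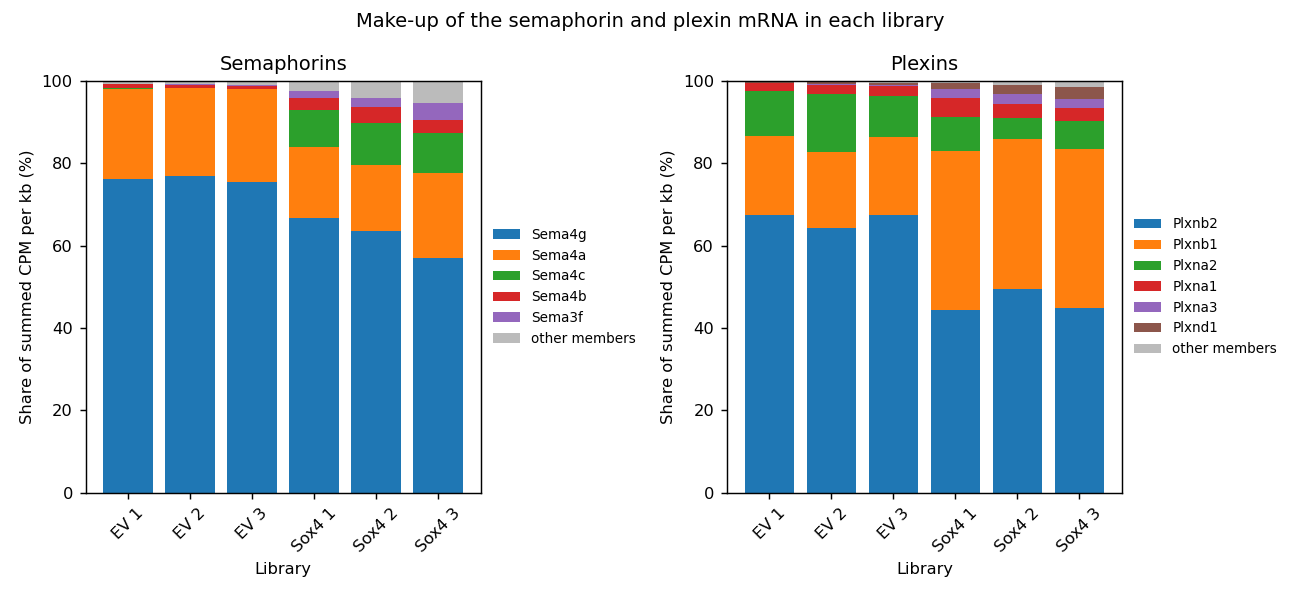
Share of each gene (%) in the summed CPM per kb of the semaphorins (left) and of the plexins (right) in each library, stacked to 100%. Sema4g fell from 76.1% to 62.4% of the semaphorin sum and Sema4c rose to 9.65%, while Plxnb2 fell from 66.4% to 46.3% and Plxnb1 rose from 18.9% to 37.9% of the plexin sum.

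Plexins are the signalling receptors for semaphorins and act on small GTPases. Of the 9 genes, 7 were tested and all 7 passed the threshold, 5 higher and 2 lower, beside 55.1% of all genes tested (29.0% higher and 26.0% lower). Plxna3, a receptor for Sema3f together with neuropilin-2, had 0.385, 0.531 and 0.725 CPM in EV and 12.4, 13.2 and 9.46 CPM in Sox4 libraries. All Sox4 libraries were more than an order of magnitude above EV, and Plxna3 rose by 4.39 ± 0.25 (21.0-fold, adjusted p = 2.96e-06). Plxnb1, the receptor of Sema4d, had 110, 110 and 99.5 CPM in EV and 260, 242 and 209 CPM in Sox4 libraries. This was the most abundant guidance gene that rose, with a small spread in both groups, and the change was 1.16 ± 0.10 (2.23-fold, adjusted p = 5.09e-05). Plxna1 rose just short of 2-fold (0.97 ± 0.24, 12.7 ± 1.47 to 24.8 ± 6.76 CPM, adjusted p = 0.00276).

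Plxnd1, known as the endothelial receptor of Sema3e, had 1.46, 2.27 and 2.39 CPM in EV and 8.06, 11.3 and 12.4 CPM in Sox4 libraries. The groups were well apart, with a rise of 2.36 ± 0.28 (5.15-fold, adjusted p = 6.54e-05). Plxnc1, the receptor of Sema7a and a gene of myeloid cells, had 0.693, 1.52 and 2.18 CPM in EV and 2.30, 5.10 and 6.38 CPM in Sox4 libraries. Its lowest Sox4 library was just above its highest EV library, and the rise of 1.64 ± 0.61 (3.12-fold, adjusted p = 0.0153) missed the threshold without the third Sox4 library (adjusted p = 0.0512). Plxna2 and Plxnb2 were lower by small amounts. Plxna2, a receptor for class 6 semaphorins, had overlapping groups (84.5 ± 21.6 and 53.9 ± 15.8 CPM, -0.65 ± 0.31, adjusted p = 0.0429). Plxnb2, the main plexin of these cells per kb of exon, was at 284 ± 14.4 CPM in EV and 221 ± 32.4 CPM in Sox4 libraries (-0.36 ± 0.13, adjusted p = 0.0480). Both calls depended on single libraries. Plxnb2 had an adjusted p of 0.0572 to 0.127 without 1 of the EV libraries and 0.133 without Sox4 library 3, Plxna2 lost its call without EV library 1 or 2 or Sox4 library 2 or 3 (adjusted p of 0.0716 to 0.134). They also depended on the processing. When libraries were scaled by size alone, Plxna2 was at -0.18 (adjusted p = 0.519) and Plxnb2 at 0.11 (adjusted p = 0.526), and Plxnb2 was not called without a filter on low counts (adjusted p = 0.0846) or at a mean count of at least 50 (adjusted p = 0.0604). Plxna4 had at most 8 counts and Plxnb3 at most 1 in a library.

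The summed plexin level per kb did not separate the groups (65.2 ± 4.53 in EV and 72.5 ± 8.48 CPM per kb in Sox4 libraries, which overlapped), whereas the shares did. Plxnb2 made up 66.4% ± 1.78 of the plexin sum in EV and 46.3% ± 2.76 in Sox4 libraries, and Plxnb1 18.9% ± 0.486 and 37.9% ± 1.16. Per kb, Plxnb2 was ahead of Plxnb1 in every library, at 43.2 and 12.3 CPM per kb in EV and 33.6 and 27.4 CPM per kb in Sox4 libraries. In CPM, without division by exon length, the mean of Plxnb1 in Sox4 libraries was the higher one (237 against 221). Plxna2 followed, with 11.7% in EV and 6.72% in Sox4 libraries, and Plxna3 went from 0.122% to 2.31%.

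Neuropilins are co-receptors of the class 3 semaphorins, and also of VEGF. Nrp1 had 44.5, 49.7 and 76.3 CPM in EV and 14.5, 14.8 and 9.36 CPM in Sox4 libraries. All Sox4 libraries were below all EV libraries, and Nrp1 fell by 2.14 ± 0.32 on the log2 scale (4.41-fold, adjusted p = 1.25e-04). Nrp2 was low in both groups (2.05 ± 0.175 and 1.58 ± 0.103 CPM) and did not pass the test (-0.37 ± 0.08, adjusted p = 0.329). The summed neuropilin level was 16.0 ± 4.76 CPM per kb in EV and 3.74 ± 0.855 CPM per kb in Sox4 libraries, and Nrp1 made up 95.8% of the latter.

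**Figure D3:**
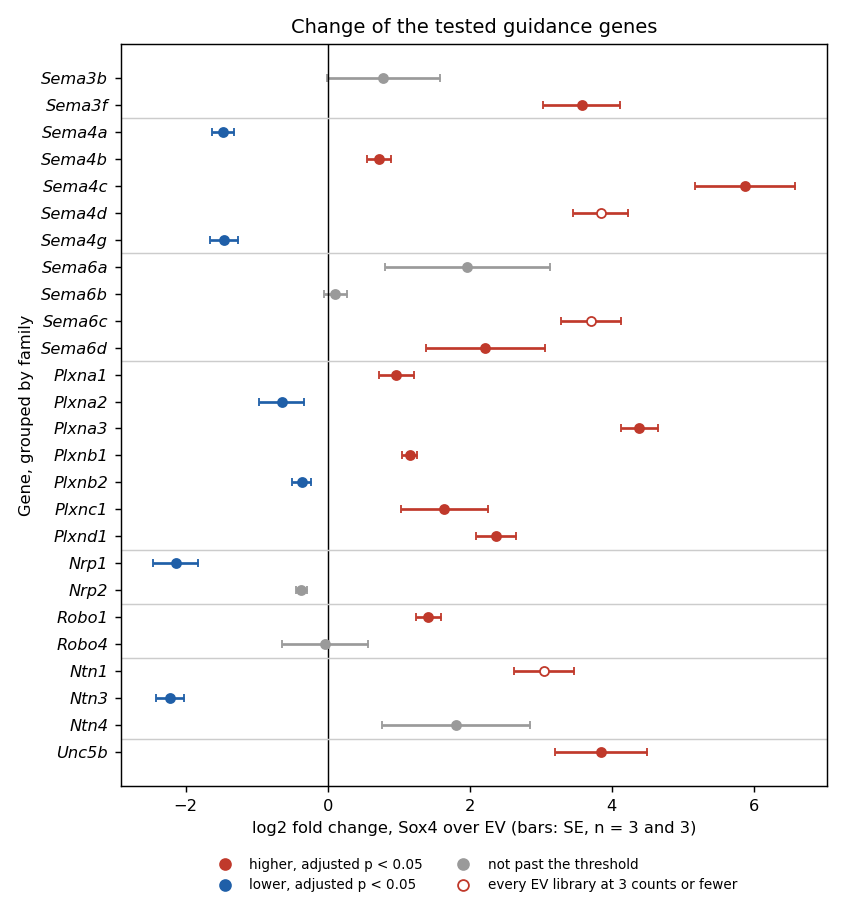
Log2 fold change (Sox4 over EV) of the 26 tested guidance genes, with SE as bars (n = 3 and 3), by family from top to bottom. The 14 red points lie to the right and the 6 blue points to the left of 0, from Ntn3 at -2.22 to Sema4c at 5.88, and open circles are genes whose fitted value depends on a prior count because every EV library had 3 counts or fewer.

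Robo receptors bind slits and repel migrating cells and axons. Robo1 had 29.2, 26.2 and 30.6 CPM in EV and 74.3, 92.4 and 62.7 CPM in Sox4 libraries. The groups were widely separated, and Robo1 rose by 1.42 ± 0.17 (2.67-fold, adjusted p = 4.73e-05). It made up 97.6% ± 0.725 of the robo sum in Sox4 libraries, and the sum went from 4.00 ± 0.412 to 10.4 ± 2.10 CPM per kb. Robo4, which is known from endothelium, was at 0.791 ± 0.522 CPM in EV and 0.778 ± 0.416 CPM in Sox4 libraries (-0.03 ± 0.60, adjusted p = 0.966). Robo2 and Robo3 did not exceed 12 counts per library and were not tested.

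The slits, the ligands of these receptors, were at or near 0. Slit3 had no count in any of the 6 libraries, which allows up to 0.150 to 0.231 CPM per library. Slit1 had at most 3 counts. Slit2 had 0, 0 and 1 counts in EV and 4, 2 and 6 in Sox4 libraries, and its mean in Sox4 libraries (0.202 CPM) was at the level of the floor. Robo1 thus rose where none of its slit ligands could be tested at this depth.

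Netrins are secreted proteins related to laminins, and here they moved in both directions. Ntn3 had 13.1, 9.33 and 8.48 CPM in EV and 2.20, 2.40 and 2.02 CPM in Sox4 libraries. The groups were far apart, and Ntn3 fell by 2.22 ± 0.20 on the log2 scale (4.65-fold, adjusted p = 4.78e-05). Ntn1, the best-studied netrin, had 2, 3 and 0 counts in EV and 19, 24 and 22 in Sox4 libraries (0.127 ± 0.116 and 1.10 ± 0.137 CPM). With EV at the floor, Ntn1 was at least 4.87-fold higher (adjusted p = 0.00362). Ntn4, a basement membrane netrin, ranged from 0 to 1.02 CPM in EV libraries and reached 0.851 to 3.29 CPM in Sox4 libraries, with overlap between groups, and did not pass the test (1.80 ± 1.04, adjusted p = 0.106). Its value was 2.88 without EV library 3 (adjusted p = 0.0485) and 0.98 without Sox4 library 3 (adjusted p = 0.369), and it was called with library size alone (2.27, adjusted p = 0.0450) and without a filter on low counts (adjusted p = 0.00274). Ntn5 had no count in any library.

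The netrin sum was 2.20 ± 0.476 CPM per kb in EV and 1.10 ± 0.345 CPM per kb in Sox4 libraries. Ntn3 held 92.8% of it in EV, whereas Ntn3, Ntn4 and Ntn1 held 42.7% ± 13.8, 40.1% ± 17.9 and 17.2% ± 4.32 in Sox4 libraries. Ntn3 was thus the leading netrin of control cells and shared that place with Ntn4 in Sox4-expressing cells, within the spread of the libraries.

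UNC5 receptors mediate repulsion by netrins and are dependence receptors, which can trigger apoptosis when no ligand is bound. Unc5b had 0.847, 1.67 and 0.290 CPM in EV and 9.81, 13.1 and 17.7 CPM in Sox4 libraries. The lowest Sox4 library was several times the highest EV library, and Unc5b rose by 3.85 ± 0.64 (14.4-fold, adjusted p = 1.26e-04), or by 4.56 without EV library 2. Unc5a had 0, 3 and 2 counts in EV and 5, 5 and 6 in Sox4 libraries and was not tested. Unc5c and Unc5d had no count in any library.

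Set side by side as ligand and receptor, the changes were uneven. On the per kb scale, Sema4c (0.102 in EV and 5.99 in Sox4 libraries) rose while its receptor Plxnb2 (43.2 and 33.6) was the most abundant plexin throughout. Sema4d, at 0.0158 CPM per kb in EV, was low beside Plxnb1 in both groups, and both genes rose. Sema3f and Plxna3 rose together, from 0.135 to 1.65 and from 0.0788 to 1.68 CPM per kb, whereas their co-receptor Nrp2 was low in both groups (0.197 and 0.153 CPM per kb). For Plxnc1 and Plxnd1, which rose, Sema7a and Sema3e, the ligands named above, had no count in any Sox4 library. Other possible ligands of these plexins were not paired with them here. Ntn1 and Unc5b both rose, and the netrin receptor gene Dcc, which is not among the 46 genes, had no count in any library. These are values of bulk mRNA, and ligand and receptor may come from different cells.

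In the order of levels per kb, Sema4g (108), Plxnb2 (43.2), Sema4a (31.0), Nrp1 (15.8), Plxnb1 (12.3), Plxna2 (7.66) and Robo1 (3.79) led in EV. In Sox4 libraries the order was Sema4g (39.2), Plxnb2 (33.6), Plxnb1 (27.4), Sema4a (11.2), Robo1 (10.1), Sema4c (5.99), Plxna2 (4.88) and Nrp1 (3.58). Sema4c went from rank 22 to rank 6, Nrp1 from rank 4 to rank 8 and Ntn3 from rank 8 to rank 19. The guidance genes together took 0.0958% to 0.122% of the counts of a library.

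The 20 genes that were not tested had at most 22 counts in a library. Of these, 11 were at 3 counts or fewer in all 6 libraries, among them the 4 without any count (Ntn5, Slit3, Unc5c and Unc5d). In 5 of the 20 the Sox4 libraries lay above all EV libraries (Plxna4, Sema3c, Sema3d, Slit2 and Unc5a), with at most 9 counts each. Of these 5, Sema3d passed the threshold when no filter on low counts was applied (log2 fold change of 5.21, adjusted p = 0.0187, edgeR).

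To place these changes within the pathways, 60 partner and signalling genes of the same families of cues were examined. They were chosen with earlier results of these data known, so the shares below describe the listed genes only. Of these, 41 were tested and 28 (68.3%) changed, beside 55.1% of all genes tested. In all, 19 were higher and 9 lower, beside 29.0% and 26.0% of all genes tested. Of the 41, 17 changed by at least 2-fold, beside 28.4% of all genes tested. The median log2 fold change was 0.33, against 0.04 over all genes tested. With scaling by library size alone 30 changed, 27 higher and 3 lower, so that the share of higher genes was 90.0% in place of 67.9%.

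All 13 Slit-Robo signalling genes passed the filter on low counts. Of these, 8 rose and 1 fell (69.2%), beside 55.1% of all genes tested (29.0% higher and 26.0% lower). The filter keeps genes that were high in 1 group alone. In EV libraries Srgap1 had 2, 5 and 2 counts and Enah had 1, 1 and 4, at or near the floor. Srgap1, a GTPase activating protein that binds Robo1, had 0.154, 0.379 and 0.145 CPM in EV and 7.01, 12.1 and 14.5 CPM in Sox4 libraries (5.59 ± 0.42, adjusted p = 8.42e-06). Its relative Srgap2 rose from 17.7 ± 3.20 to 60.5 ± 6.97 CPM (1.77 ± 0.18), while Srgap3 fell from 4.70 ± 1.25 to 0.422 ± 0.179 CPM (-3.46 ± 0.37). The 3 srGAP genes thus did not move as a group. Enah, an actin regulator of the Ena/VASP family, rose from 0.148 ± 0.123 to 8.04 ± 1.33 CPM (5.68 ± 0.35, and 6.57 without EV library 3). Nck2, an adaptor protein, rose from 1.03 ± 0.370 to 29.0 ± 3.37 CPM (4.81 ± 0.27), whereas its paralog Nck1 was at 19.2 ± 2.51 and 21.6 ± 1.70 CPM (adjusted p = 0.339). Pak1, a kinase activated by Rac and Cdc42, the tyrosine kinase Abl1, and Gpc1, a heparan sulphate proteoglycan that binds slits, rose by 2.31 ± 0.85, 1.31 ± 0.21 and 1.09 ± 0.16.

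Of 18 tested semaphorin signalling genes, 5 were higher and 6 lower (61.1%), near the 55.1% of all genes tested. Fyn, a tyrosine kinase downstream of plexins, had 0.154, 0.228 and 1.16 CPM in EV and 7.16, 6.38 and 7.19 CPM in Sox4 libraries (3.71 ± 0.67, adjusted p = 2.58e-04, and 5.11 without EV library 3). Dpysl2, which encodes the collapsin response mediator CRMP2, rose from 0.552 ± 0.102 to 2.82 ± 0.313 CPM (2.34 ± 0.15). Rras, a small GTPase that plexins inactivate, fell from 18.4 ± 1.59 to 5.39 ± 0.556 CPM (-1.77 ± 0.11). Farp2, Fes and Rnd1, an exchange factor, a tyrosine kinase and a small GTPase that act with plexins, fell by 1.09 ± 0.09, 1.12 ± 0.24 and 1.08 ± 0.46 on the log2 scale. Fes and Rnd1 lost their calls without single libraries (adjusted p of 0.0551 to 0.0850) and with library size alone. Met, which associates with B plexins, did not pass the test (91.7 ± 6.50 and 103 ± 7.42 CPM, adjusted p = 0.226).

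Among netrin receptors and signalling genes, 5 of 9 tested were higher and 2 lower (77.8%), beside 55.1% of all genes tested. Maged1, which binds UNC5 receptors, rose from 120 ± 11.9 to 308 ± 21.7 CPM (1.36 ± 0.10), and Trio, an exchange factor downstream of DCC, from 38.3 ± 3.59 to 90.3 ± 5.59 CPM (1.24 ± 0.09). Neo1, the neogenin receptor, rose by 0.42 ± 0.06. Rgmb, a ligand of neogenin, rose from 2.13 ± 0.137 to 5.84 ± 0.734 CPM (1.46 ± 0.12) and was the only 1 of 6 other UNC5 and neogenin ligands to be tested.

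**Figure D4:**
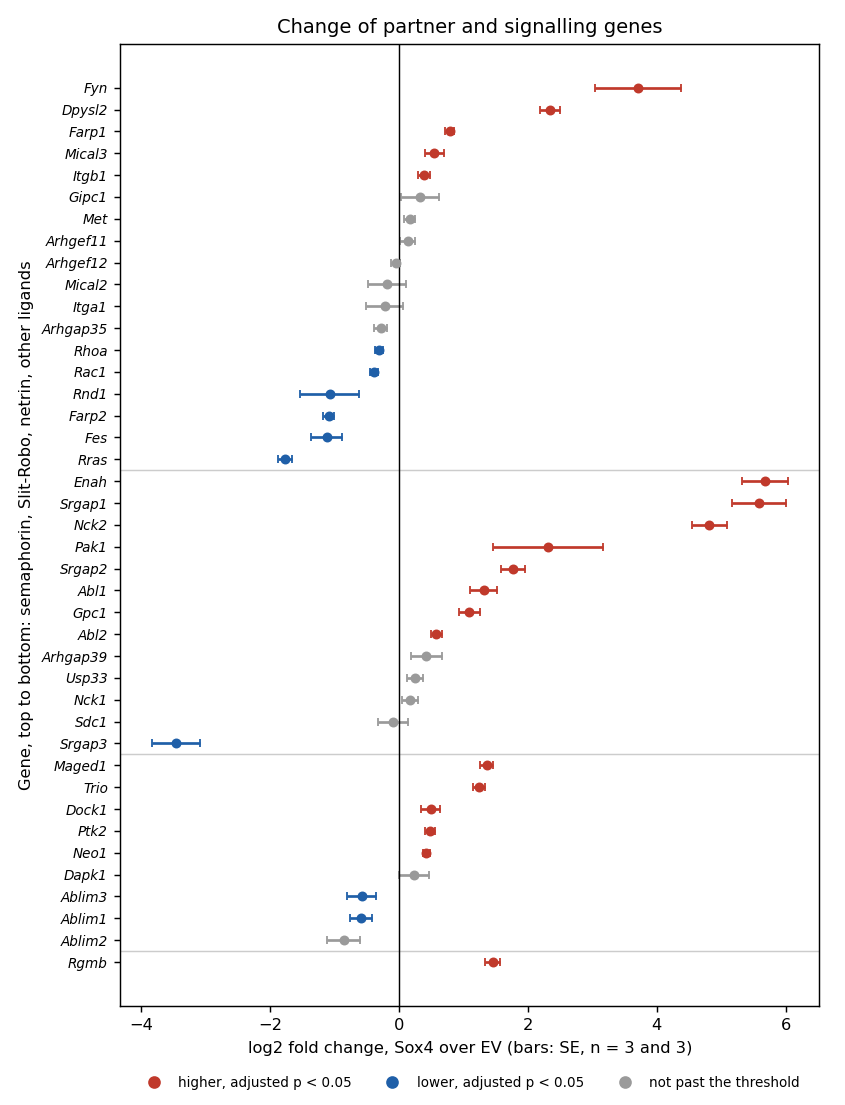
Log2 fold change (Sox4 over EV) of the 41 tested partner and signalling genes, with SE as bars (n = 3 and 3), in 4 blocks from top to bottom: semaphorin signalling, Slit-Robo signalling, netrin signalling and other ligands. Enah (5.68), Srgap1 (5.59) and Nck2 (4.81) lie farthest right and Srgap3 (-3.46) farthest left.

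Several of these genes are also expressed by other liver cells, so marker sums are given beside them. The 8 Kupffer markers summed to 11.8 to 27.3 CPM in EV libraries, against 26.3 to 62.7 CPM in Sox4 libraries. These sums overlapped, with a ratio of means of 2.29. Of the 8, 3 passed the test (37.5%), all higher, beside 55.1% of all genes tested. The 8 stellate markers summed to 8.54 to 44.7 and 79.0 to 139 CPM, mostly from Reln, and the ratio was 4.40, or 4.56 without Reln, a choice made after its values were seen. Only 3 of these 8 were tested, and Reln and Col3a1 rose (66.7% of the 3, beside the same 55.1%). The 10 endothelial markers summed to 22.5 to 38.1 and 20.2 to 50.5 CPM (ratio 1.22). Of these, 2 rose, 1 fell and 7 did not pass the test (30% past it, beside 55.1% of all genes tested). None of these 26 markers was at 0 in every library. Cholangiocyte markers (8 genes, 27.5 to 43.6 and 71.4 to 84.6 CPM, ratio 2.23) included Epcam and Spp1, which rose, while Krt7 and Krt19 were at 0 in EV and at most 9 counts in Sox4 libraries.

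Within each group, the library order of Plxnc1, Plxnd1 and Sema6a was that of the Kupffer and endothelial sums and of the stellate sum without Reln, with EV library 1 and Sox4 library 1 the lowest. The pathway gene Pak1, which rose, had this order too (0.539, 3.03 and 3.34 CPM in EV, 6.71, 11.1 and 16.7 CPM in Sox4 libraries). With Reln included, the stellate sum had another order in Sox4 libraries (133, 139 and 79.0 CPM), with Sox4 library 3 the lowest. The ratio of means was 3.14 for Plxnc1, 5.18 for Plxnd1, 4.70 for Sema6d, 4.05 for Sema6a and 3.56 for Ntn4 beside 2.29 for the Kupffer sum, 4.40 for the stellate sum and 1.22 for the endothelial sum. The ratio was 58.8 for Sema4c, 21.4 for Plxna3, 14.4 for Unc5b, 12.2 for Sema3f, 2.67 for Robo1 and 0.227 for Nrp1. The part of these cells in any of these results was not tested.

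Lymphoid and neutrophil markers (7 genes) summed to 0.770 to 2.28 CPM in EV libraries, against 1.40 to 4.29 CPM in Sox4 libraries, with Ly6g at 0. Neuron and glia markers (8 genes) summed to 13.9 to 21.3 and 7.65 to 9.62 CPM, mostly from Syt1, with Snap25 and Sox10 at 0 in every library. Erythroid markers (4 genes) summed to 92.9 to 126 and 4.96 to 15.5 CPM, almost all from Alas2.

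**Figure D5:**
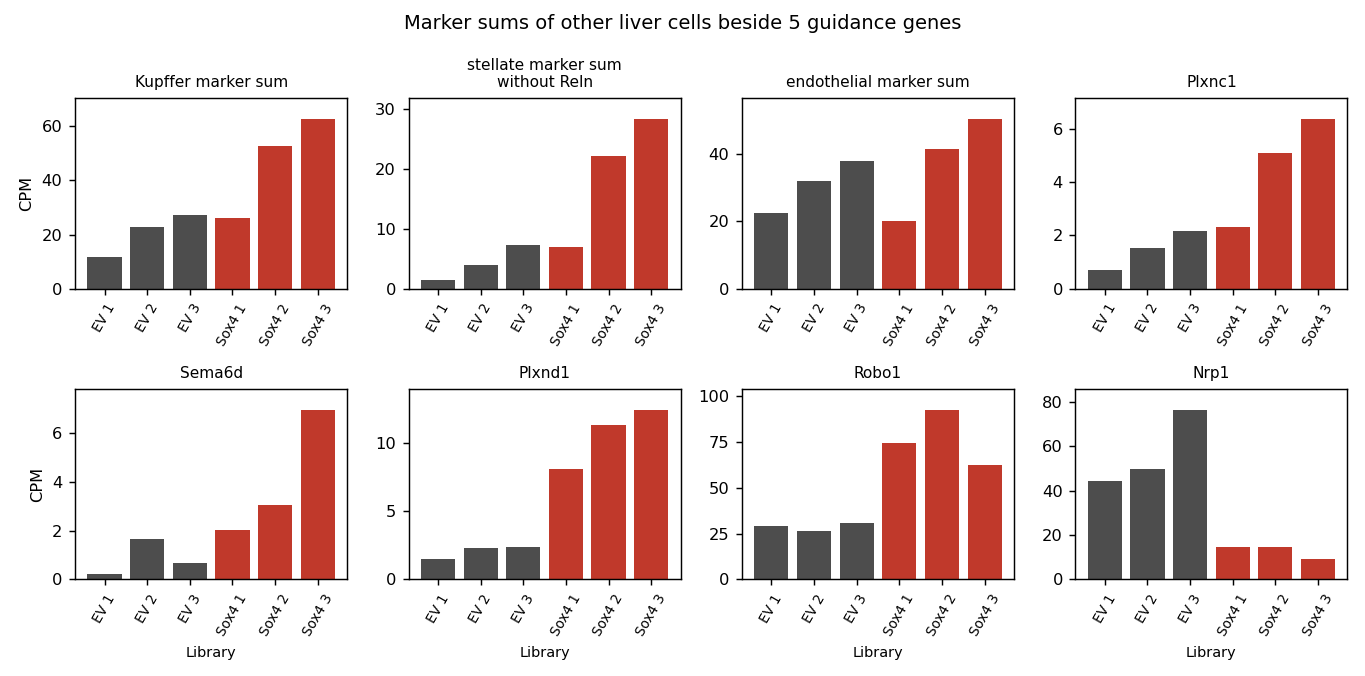
Summed CPM of Kupffer, stellate (without Reln) and endothelial markers and CPM of Plxnc1, Sema6d, Plxnd1, Robo1 and Nrp1 in each library, EV in grey and Sox4 in red, all bars from 0. Plxnc1 and Plxnd1 share the order of the Kupffer and endothelial sums within each group, Nrp1 shares it in EV only, and Robo1 (26.2 to 30.6 CPM in EV libraries, 62.7 to 92.4 CPM after Sox4) in neither group.

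Some exons of these genes are shared with neighbours, and the strand setting of the counting is not given in the sources used here. In the gene models, 10.7% of Plxna1 exon bases lie in exons of the opposite-strand gene Gm26811 and 19.4% of Farp2 exon bases in those of Stk25. The shares were 4.5% for Ntn3, 3.0% for Plxnb1, 1.6% for Plxnc1 and 1.0% for Nrp1. Reads from such stretches cannot be told apart between the genes.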

How the data were processed

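RNA-Seq of hepatocytes from 6 mice, 3 EV and 3 Sox4, was analysed from gene-level read counts deposited by the authors. Per the submitters' processing notes, reads were aligned to GRCm39 with STAR 2.7.10b and counted with featureCounts 2.0.1. The annotation and strand setting are not given in the sources used here. The deposited normalized table was not used. Groups and replicate numbers came from the sample labels.

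Genes were kept with filterByExpr (minimum count 10, minimum total 15) and tested in R 4.3.3 with edgeR 4.0.16 (TMM, robust quasi-likelihood F test, no covariate). P-values were adjusted over all 12691 genes tested (Benjamini-Hochberg) and called at 0.05. The SE is that of the difference in mean log2 CPM (prior count 2). Where every library of a group had 3 counts or fewer, the fold is a lower bound, computed against the mean floor of those libraries. Exon lengths came from GENCODE M21 (GRCm38), not the build of the alignment, and its coordinates were not used. The SOX core letters were searched on both strands of RefSeq promoters.

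Genes named with full values were those past the threshold with at least 2-fold change. The members, pathway genes and markers were chosen with earlier results of these data known. Libraries of a group differed beyond sampling noise (chi-square per degree of freedom 18.0 to 71.3). Scripts were tested on simulated data. Alternatives were DESeq2 1.42.0, other scalings, other filters, a replicate block and leaving out each library.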

Additional observations from a re-analysis of the deposited data

How the results depend on the processing

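The number of guidance genes past the threshold was 20, and 17 to 22 when each library was left out in turn. It was 21 with DESeq2, 20 with DESeq2 size factors in edgeR, 19 with library size alone, 23 without a filter on low counts and 15 of 16 tested at a mean count of at least 50. For the 60 pathway genes it was 28 (22 to 29), and for all genes 6990 (6027 to 7269). The log2 fold change of Sox4 ranged from 12.03 to 13.24. Over all genes tested, the deviations of same-numbered libraries from their group means had correlations of 0.28, -0.09 and 0.13. With so few libraries, these values cannot show whether the libraries were paired. With a replicate block, 21 guidance genes and 7362 of all genes passed. The block moved the adjusted p of Plxna2 to 0.0779, of Ntn4 to 0.0315 and of Sema6a to 0.0162.

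Of 302 values of single guidance genes under an alternative, 271 kept their direction and their side of the threshold, 17 kept their direction but lost the call, 7 kept it and gained a call and 7 reversed. With library size alone, Nrp2 was 0.10, Plxnb2 0.11 and Robo4 0.43. Robo4 ranged from -0.51 to 0.62 when each library was left out, and was 0.01 without a filter on low counts, 0.62 without EV library 3, 0.28 without Sox4 library 1 and 0.03 without Sox4 library 3, and was not called in any of these fits. Of 201 values of pathway genes, 194 kept direction and call and 7 lost the call. Without a filter on low counts Sema5b (-2.79) and Sema3d (5.21) passed the threshold, and Ntn4 and Sema6a were also called. Leaving out 1 library moved Sema4c to 7.34, Sema6c to 4.97, Sema4d to 4.73 and Ntn1 to 2.46 or 3.73, all still called. Their EV counts were 13 or fewer per library, so that the size of these folds is limited by depth.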
